A study of Mus musculus with 36 samples.

Results

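The genes described here encode the proteins of the cytosolic ribosome of the mouse. They were chosen by symbol among the protein-coding genes of GENCODE release M21 on the mm10 build: Rpl or Rps followed by a digit, or Rpsa, Rplp1 or Rplp2, without Rplp0 and without the S6 kinases. This gave 91 genes of the 54232 gene identifiers in the files. The rule itself uses no measured value, but it was chosen with earlier results of these data known. They comprised 43 proteins of the large subunit, 31 proteins of the small subunit, 2 stalk proteins, 8 paralogues, 6 genes named as retrocopies (copies made from a processed mRNA) and Rps19bp1, which carries the prefix but encodes a regulator of the deacetylase SIRT1 and no part of the ribosome. Of these 91 genes, 85 passed the filter on low counts and were tested, among 12957 tested genes in all.

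The RNA came from bone marrow-derived macrophages, which are marrow cells of the mouse grown for 5 days in 20 ng/mL M-CSF, the growth factor that drives macrophage formation. There were 36 libraries in 6 groups of 6. Untreated cells labelled WT, cells labelled WT with 100 ng/mL lipopolysaccharide (LPS, the bacterial cell wall component that macrophages sense) for 2 h, and cells labelled WT with LPS for 8 h made 3 groups, and the same conditions in cells labelled NOS1 KO made the other 3. The labels give no age, sex, strain, animal or batch, and no description of the deleted part of Nos1. Whether the 6 libraries of a group stem from different cultures or mice is not stated, so each p-value weighs a difference against library-to-library spread that could be technical in part. Replicate numbers follow accession order and only name a library.

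A ribosome holds 1 copy of nearly every one of its proteins, and cells keep the supply of these proteins matched. Most ribosomal protein mRNAs begin with a 5′ terminal oligopyrimidine (TOP) tract, a run of C and T at the first transcribed bases through which mTOR and the RNA-binding protein LARP1 set their translation. Several of the proteins are also known outside the ribosome: RPL5 and RPL11 bind the p53 inhibitor MDM2 when assembly fails, RPS3 is known as a partner of NF-kB, and RPL13A is known to be released from the ribosome to silence inflammatory mRNAs in macrophages and monocytes.

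Library totals ran from 8953489 to 18482551 counts, with a median of 12761433. Every group split into 3 libraries of a set A and 3 of a set B along the first principal component of the counts within groups, which held 34.6% of the variance. No label names these sets. The genotype label of replicate 6 in each group begins with BMDM, unlike the others. These libraries all lay in set A, beside replicates 1 and 2, whose labels lack it. WT-labelled LPS replicates 5 and 6 at both times held raised skeletal muscle markers, with a summed level of 109.7 to 3770 CPM (counts scaled to a common library size) against at most 58.4 CPM in any other library. The 10 macrophage markers summed to 13121 to 23077 CPM. No library had a summed level above 5.12 CPM for B cell markers, 0.539 CPM for T and NK cell markers (Cd3e and Ncr1 were at 0 in all) or 8.02 CPM for erythroid markers, whereas neutrophil and precursor markers reached 315 CPM. Stromal markers had medians of 36.4, 36 and 56.7 CPM in WT-labelled controls, at 2 h and at 8 h (highest 197 CPM) and of 17.7, 19.3 and 34.3 CPM in KO-labelled cells. Dendritic cell markers had medians of 1.68, 9.54 and 8.41 CPM and of 1.59, 9.71 and 12 CPM. The part of these lists in the results was not tested. Nos1 went against its label, with 0 to 8 counts in WT-labelled and 10 to 83 in KO-labelled libraries, so genotypes are given as labelled. The WT-labelled replicate 1 of each treatment held 4924 to 6526 counts of Xist, and every other library held 0 or 1.

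Levels are given as CPM after TMM scaling, a method that sets libraries to a common level for the bulk of genes. This choice bears on every direction below. The scaling factors lay at 1.254 to 1.336 in controls and at 0.691 to 0.805 at 8 h. A fold change on the TMM scale is therefore relative to the bulk of expressed genes. Scaling by library totals alone gives the change in a gene's share of all counts, and it moved the median log2 fold change of all tested genes at 8 h from -0.06 to -0.83 in WT-labelled and from -0.06 to -0.88 in KO-labelled cells. Fewer transcripts per cell and a smaller share of a larger RNA pool cannot be told apart in such bulk libraries.

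The ribosomal protein genes together took a smaller share of the counts after LPS, and on the TMM scale their summed levels overlapped between all groups. In WT-labelled controls they took 3.14, 3.28 and 3.87% of all counts (lowest, median and highest library). At 2 h the values were 2.63, 2.97 and 3.12%, and at 8 h they were 1.8, 1.95 and 1.99%. Each step left the groups apart without overlap in WT-labelled cells. In KO-labelled cells the shares were 3.09, 3.38 and 3.49% in controls, 2.43, 2.93 and 2.98% at 2 h and 1.63, 1.8 and 2.05% at 8 h, again with no overlap between treatments. On the TMM scale the summed level was 25882 ± 1723, 27650 ± 1382 and 25416 ± 1137 CPM in WT-labelled controls, at 2 h and at 8 h (SD, n = 6 each). In KO-labelled cells it was 25947 ± 1296, 26882 ± 1694 and 25173 ± 1513 CPM (SD, n = 6 each). 

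**Figure D1:**
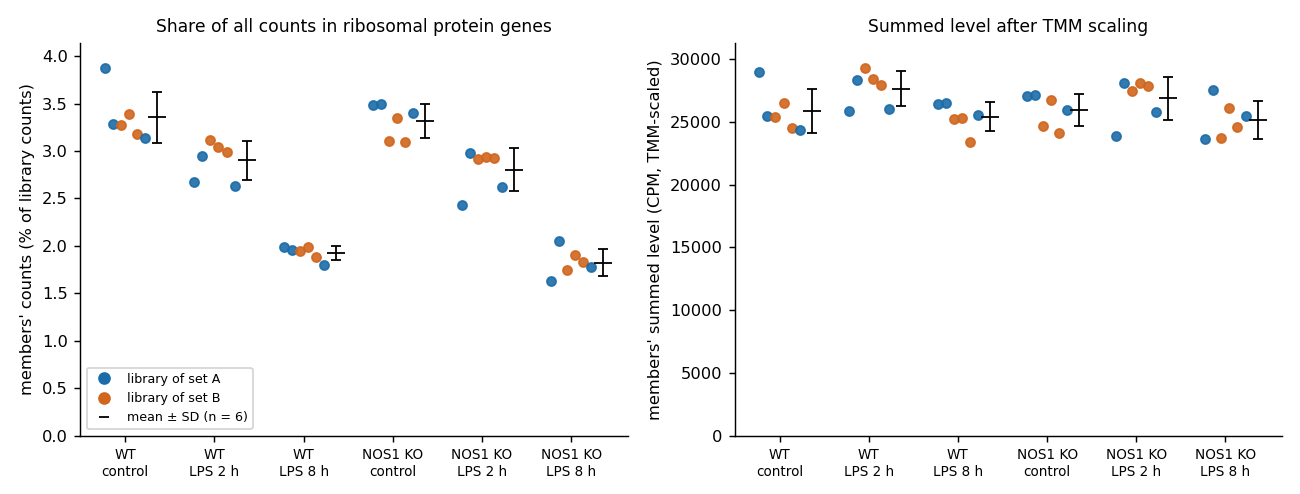
Left, percent of each library's counts in the 91 ribosomal protein genes; right, their summed level in CPM after TMM scaling. Each point is 1 library, coloured by set, and bars are the mean ± SD of 6 libraries. The share falls from 3.14 to 3.87% in WT-labelled controls to 1.8 to 1.99% at 8 h, whereas the summed levels of all 6 groups lie between 23374 and 29270 CPM and overlap.

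Per kilobase of merged exons, the quantity on which genes of different length can be compared, the tested members had a median of 134 CPM in WT-labelled controls, with quartiles of 83.9 and 229 CPM. Rplp1, a protein of the flexible stalk that recruits elongation factors, stood highest at 1426 ± 98.1 CPM per kilobase (SD, n = 6). Rps29 followed at 599 ± 93.7, Rps3a1 at 543 ± 55.5 and Rps15 at 497 ± 30.6 CPM per kilobase. Among these 3 small-subunit proteins each neighbouring pair differed by less than their SDs summed, whereas Rplp1 stood clear of them. With the length of a representative mRNA in place of merged exons, Rplp1 and Rps29 kept the first 2 places, Rps3a1 moved to place 19 and Rps15 to place 13, so the order below the top rests on the length used.

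At the other end stood Rpl24, at 0.468 ± 0.193 CPM per kilobase, followed by Rpl39l at 0.496 ± 0.307, Rpl36al at 0.527 ± 0.201 and Rpl13a at 3.81 ± 0.561 CPM per kilobase (SD, n = 6 each). Rpl24 and Rpl13a encode ordinary large-subunit proteins, of which every ribosome holds a copy. In the annotation, 83.4% of the coding bases of Rpl24 are also exons of Gm28037, 95.3% of those of Rpl36al are exons of Gm49383, and 90.3% of those of Rpl13a are exons of Gm45713, and each of these 3 overlapping genes had 0 counts in all libraries. How the counting treated reads that lie in 2 genes is not given in the sources used here, so the low counts of these members cannot be read as low expression. Rps10 had 80.1% of its coding bases overlapped as well and stood at 262 ± 17 CPM in WT-labelled controls. Among tested members, 39 had some exon overlapped by another gene.

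Ribosomal protein genes have many pseudogenes, and 1316 of them matched a member's transcript. They held 1.08% of the counts of members and copies together. For 80 members the copies held under 5%. The exceptions among tested members were Rpl24 (90.08%), Rpl36al (42.58%), Rpl13a (33.7%), Rps27rt (9.11%) and Rpl38 (9.06%), and reads of these genes and their copies may have been split.

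After 8 h of LPS the ribosomal protein genes moved in both directions on the TMM scale. In WT-labelled cells 8 of 85 rose and 21 fell relative to the bulk of genes (34.1% called, where 71.2% of all tested genes were called, 34.2% higher and 37% lower). In KO-labelled cells 8 rose and 26 fell (40% called, against 72.1% of all genes, 34.9% higher and 37.2% lower). A gene was called where edgeR's quasi-likelihood test gave a p below 0.05 after Benjamini-Hochberg adjustment across all 12957 genes. The median log2 fold change of the members was -0.02 in WT-labelled and -0.05 in KO-labelled cells, beside -0.06 for all genes in both. The members' changes were spread less widely than those of all genes. Their quartiles were -0.19 and 0.09 under both labels. For all genes the quartiles were -0.79 and 0.66 in WT-labelled and -0.81 and 0.69 in KO-labelled cells. With library totals alone 0 rose, 82 fell in WT-labelled cells (85.2% of all genes were called, 16.9% higher and 68.2% lower) and 83 in KO-labelled cells (85.7% called, 16.7% higher and 69% lower), and the members' medians became -0.79 and -0.87. Without the 4 libraries with muscle RNA, 10 rose and 12 fell in WT-labelled cells (67.3% of all genes called, 32.4% higher and 34.9% lower). The split in WT-labelled cells was 11 higher and 15 lower with DESeq2 size factors (35.4% and 35.9% of all genes) and 13 higher and 19 lower with DESeq2's own test (35.6% and 36.2%).

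Rps24, a small-subunit protein needed for the maturation of 18S rRNA and mutated in Diamond-Blackfan anaemia (ENSMUSG00000025290, mm10 chromosome 14, 24487125 to 24496959, plus strand), stood at 447, 509.7 and 660.2 CPM in WT-labelled controls (lowest, median and highest library) and at 662, 801 and 858 CPM at 8 h. In KO-labelled cells it went from 461, 532 and 598 to 782, 847 and 932 CPM. The highest WT-labelled control lay just under the lowest library at 8 h, and the KO-labelled groups were far apart. The log2 fold changes were 0.58 ± 0.08 and 0.67 ± 0.08 (SE; edgeR adjusted p = 1.29e-07 and 6.83e-09), and with library totals alone they reversed to -0.20 and -0.15.

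Rps20, a protein of the head of the small subunit (ENSMUSG00000028234, chromosome 4, 3831334 to 3835665, minus strand), rose by 0.45 ± 0.08 and 0.57 ± 0.08 in WT-labelled and KO-labelled cells (edgeR adjusted p = 1.20e-05 and 2.82e-07). Its WT-labelled values were 204, 221 and 303 CPM in controls and 276, 321 and 339.5 CPM at 8 h, and 1 control library, replicate 1, lay within the range at 8 h. In KO-labelled cells 199, 228 and 267 CPM became 339.7 ± 31.2 CPM (SD, n = 6; lowest 302, median 330.4) with no overlap. With library totals alone the values were -0.32 and -0.26.

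Smaller rises in both genotype labels were found for 4 further genes. Rps9, at the entry channel of the mRNA (chromosome 7, 3703993 to 3706897), changed by 0.28 ± 0.06 and 0.26 ± 0.06, and Rpl19, a large-subunit protein that bridges the subunits (chromosome 11, 98026710 to 98030492), by 0.27 ± 0.07 and 0.24 ± 0.07. The large-subunit proteins Rpl34 and Rpl15 changed by 0.20 ± 0.06 and 0.15 ± 0.06, and by 0.17 ± 0.05 in both. With library totals alone all 7 genes called higher in both labels stood below 0, Rpl15 at -0.61 and -0.65 and Rpl34 at -0.58 and -0.67, each still above the median of all genes on that scale (-0.83 and -0.88).

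The falls were spread over both subunits. Rpl3, which reaches into the peptidyl transferase centre (ENSMUSG00000060036, chromosome 15, 80077791 to 80091868, minus strand), stood at 552, 618 and 713 CPM in WT-labelled controls and at 438 ± 35.9 CPM at 8 h (SD, n = 6; median 437, highest 481). In KO-labelled cells it went from 582, 631 and 709 to 408, 425 and 449 CPM. No library at 8 h reached the lowest control of its label. The log2 fold changes were -0.52 ± 0.07 and -0.58 ± 0.07 (edgeR adjusted p = 5.60e-08 and 4.94e-09), and -1.29 and -1.40 with library totals alone.

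Rpl10a, the protein of the mobile L1 stalk at the exit site of tRNA (ENSMUSG00000037805, chromosome 17, 28328471 to 28331033, plus strand), went from 275, 301 and 361 to 204, 211 and 241 CPM in WT-labelled cells. It went from 269, 294 and 314 to 186, 206 and 229 CPM in KO-labelled cells, and no library at 8 h overlapped the controls of its label. The changes were -0.51 ± 0.07 and -0.50 ± 0.07 (edgeR adjusted p = 1.30e-07 and 1.67e-07).

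Rpsa, a small-subunit protein that also gives rise to a laminin receptor at the cell surface (ENSMUSG00000032518, chromosome 9, 120127689 to 120132369, plus strand), fell from 866, 901 and 983 to 607, 681 and 732 CPM in WT-labelled cells. In KO-labelled cells it fell from 879.5, 952 and 986 to 555, 723 and 785 CPM. Both pairs of groups were apart, and the changes were -0.42 ± 0.09 and -0.47 ± 0.09 (edgeR adjusted p = 1.83e-04 and 4.47e-05). Rps2, at the entry channel of the mRNA, changed by -0.35 ± 0.16 in both labels (edgeR adjusted p = 0.0465 and 0.0473), with groups that overlapped: 587 to 747 CPM against 425 to 628 CPM in WT-labelled cells. Among members with a mean of 4 CPM or more, Rpl13a had the largest fall, -0.66 ± 0.14 and -0.85 ± 0.14. It stood at 8.05 ± 1.19 CPM in WT-labelled controls and 5.11 ± 0.492 CPM at 8 h (SD, n = 6 each). Summed with its copies it changed by -0.45 and -0.54. With copies summed, the largest fall among genes called lower in both labels was -0.52 and -0.58. As 90.3% of the coding bases of Rpl13a are overlapped by other genes, its counts may not stand for the whole mRNA.

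**Figure D2:**
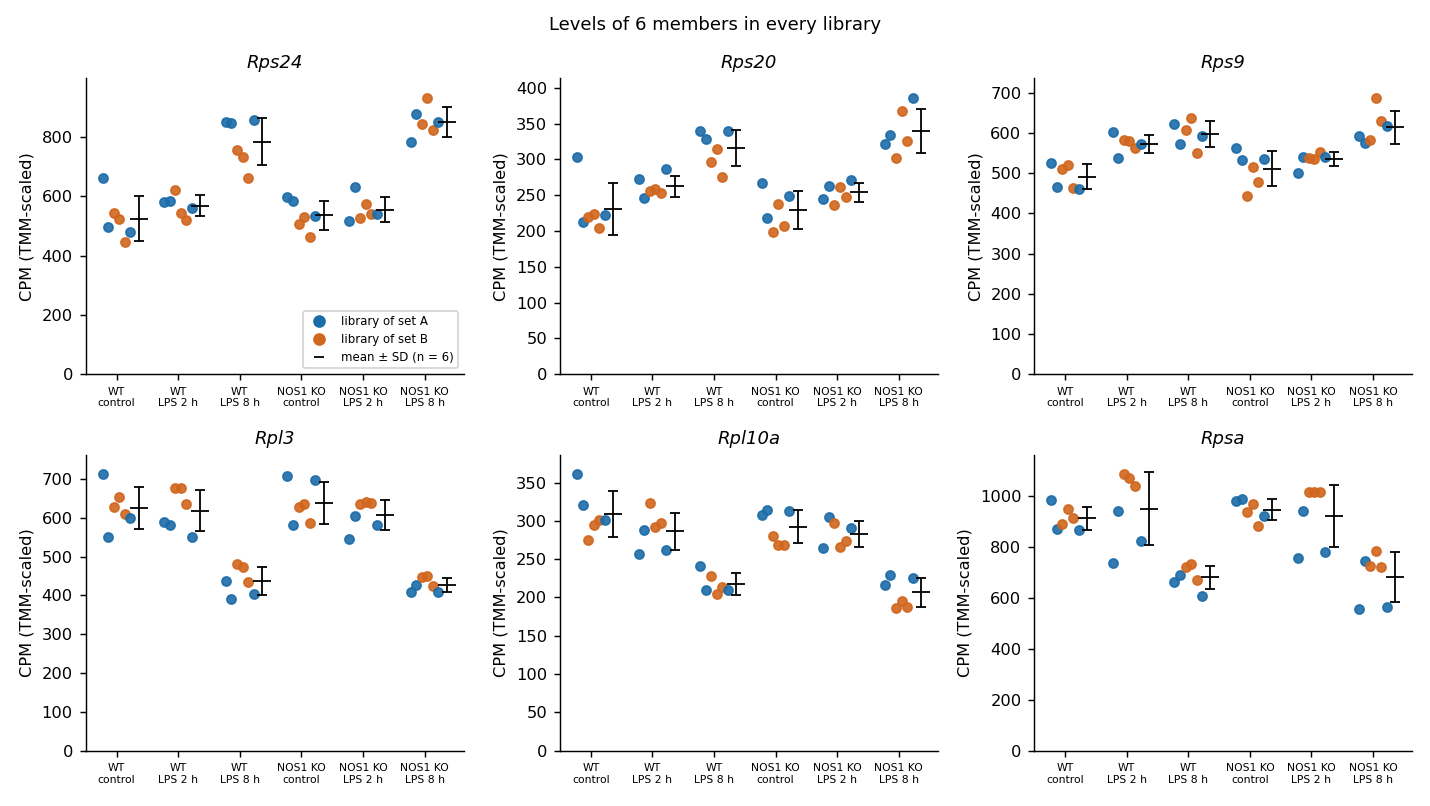
CPM after TMM scaling of Rps24, Rps20 and Rps9 (top) and Rpl3, Rpl10a and Rpsa (bottom) in every library, coloured by set, with the mean ± SD of 6 libraries per group. Rps24 stands at 782 to 932 CPM at 8 h in KO-labelled cells against 461 to 598 CPM in controls (-0.15 in log2 with library totals alone), and Rpl3 in WT-labelled cells at up to 481 against 552 to 713 CPM.

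The calls at 8 h were compared between the genotype labels. Of the 79 members with a mean of 4 CPM or more, 29 were called in WT-labelled and 33 in KO-labelled cells. Both calls were shared by 26 genes, 89.7% of the first list and 78.8% of the second (over all tested genes the shares were 93.3% and 92.1%), with 7 higher in both, 19 lower in both and 0 in opposite directions. These comparisons share no library. Across the 79 members the log2 fold changes of both labels had a Pearson correlation of 0.96 and a Spearman correlation of 0.95, values across genes that carry no p, and across all 12957 genes both were 0.97. Genes lower in both also included Rps15, Rps16, Rps18, Rps19, Rpl4, Rpl5, Rpl8, Rpl13, Rpl14, Rpl22, Rpl37 and the gene outside the ribosome, Rps19bp1. Rps19, the gene most often mutated in Diamond-Blackfan anaemia, changed by -0.24 ± 0.07 and -0.21 ± 0.07, and Rpl5 by -0.17 ± 0.07 and -0.25 ± 0.07.

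**Figure D3:**
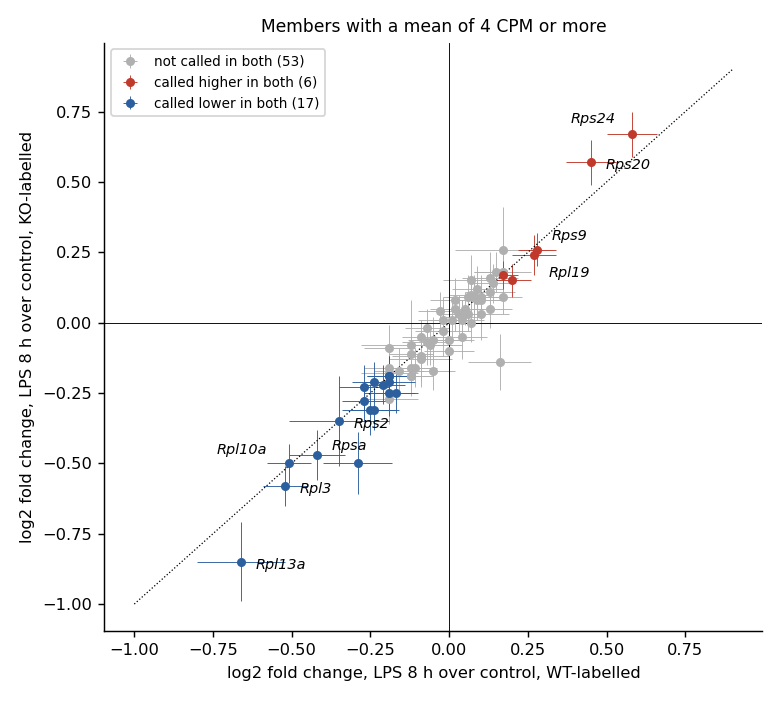
Log2 fold change between 8 h of LPS and control in WT-labelled (horizontal) and KO-labelled (vertical) cells for 76 of the 79 ribosomal protein genes with a mean of 4 CPM or more. Bars are 1 SE, the dotted line marks equal change, red genes were called higher and blue genes lower in both on the TMM scale, and with library totals alone all red genes stood below 0. Rps24 and Rps20 lie apart at the upper right with values of 0.45 to 0.67, and Rpl13a, Rpl3, Rpl10a and Rpsa at the lower left. Rpl13a has few counts, and most of its coding bases are overlapped by other genes.

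Of other members with known roles, Rps6, the S6 kinase substrate, changed by -0.12 ± 0.07 in WT-labelled cells (edgeR adjusted p = 0.136) and fell by 0.19 ± 0.07 in KO-labelled cells (edgeR adjusted p = 0.0179). Rpl11 changed by -0.12 ± 0.07 and -0.16 ± 0.07, Rps3 by -0.11 ± 0.07 and -0.16 ± 0.07, and Rpl10, which joins the large subunit last, by -0.05 ± 0.07 and -0.17 ± 0.07. Each of these 4 was called in KO-labelled cells alone. The difference between labels was tested by the interaction and called none of them (edgeR adjusted p = 1 for each). The stalk proteins did not pass the test: Rplp1 changed by 0.08 ± 0.07 and 0.09 ± 0.07 and Rplp2 by 0.02 ± 0.08 and 0.08 ± 0.08. By subunit, 4 of 43 large-subunit proteins rose and 11 fell in WT-labelled cells, and 4 of 31 small-subunit proteins rose and 9 fell. The counts in KO-labelled cells were 4 higher and 13 lower for the large and 4 higher and 11 lower for the small subunit.

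At 2 h fewer members were called than at 8 h. In WT-labelled cells 7 of 85 rose and 0 fell (8.24%, where 37.9% of all tested genes were called, 20.3% higher and 17.7% lower), with a median of 0.10 beside -0.02 for all genes. They were Rps9 (0.22 ± 0.06), Rps12 (0.21 ± 0.08), Rpl19 (0.21 ± 0.07), Rpl26 (0.19 ± 0.07), Rps10 (0.18 ± 0.07), Rpl7a (0.18 ± 0.06) and Rpl34 (0.17 ± 0.06). Rps12 stood at 421, 440.1 and 459 CPM in controls and at 475, 510.1 and 544 CPM at 2 h, so that its groups did not overlap. Rps9 had an edgeR adjusted p of 0.00272. In KO-labelled cells edgeR called 0 of 85 (35.3% of all genes were called, 18.9% higher and 16.4% lower), 1 had an unadjusted p below 0.05, DESeq2 called 1, and the median was 0.06 beside -0.01. The interaction called 0 members and 0 of all genes, with 0 members and 155 genes at an unadjusted p below 0.05. With library totals alone, 57 members fell and 0 rose in WT-labelled cells (58.8% of all genes were called, 12.2% higher and 46.6% lower), and all 7 genes that had risen stood between -0.14 (Rpl34) and -0.08 (Rps9). In KO-labelled cells 67 fell and 0 rose on that scale (56.2% called, 11.4% higher and 44.7% lower).

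**Figure D4:**
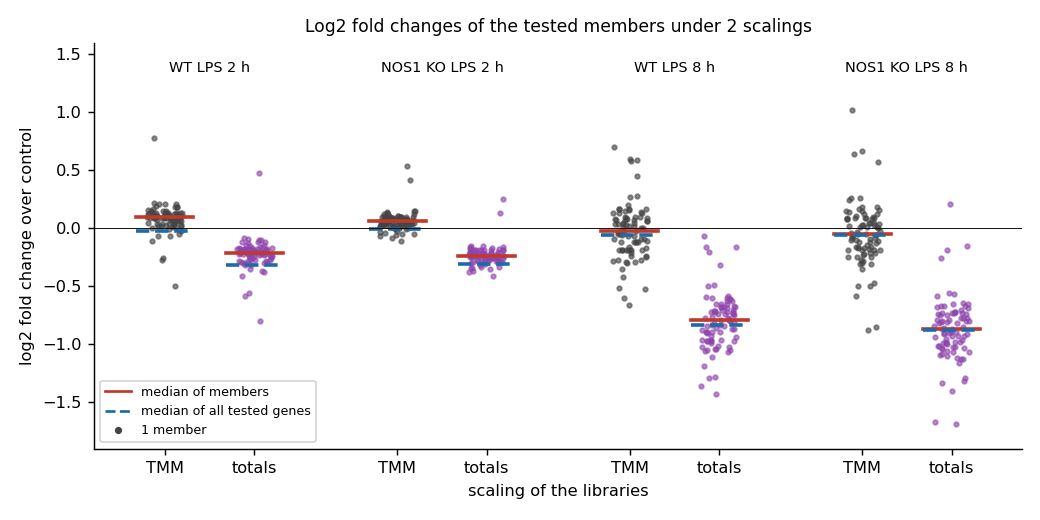
Log2 fold changes of the 85 tested ribosomal protein genes between LPS and control with TMM scaling (grey) and with library totals alone (purple), at 2 h and 8 h in WT-labelled and KO-labelled cells. Solid lines are the median of these genes and dashed lines that of all tested genes. Both medians move down together under library totals, from -0.02 and -0.06 to -0.79 and -0.83 at 8 h in WT-labelled cells.

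The calls at 2 h differed between the library sets. The members' median SE differed too, at 0.11 in set A and 0.06 in set B. In set B alone, 50 of 84 members rose in WT-labelled cells and 42 of 84 in KO-labelled cells, with medians of 0.17 and 0.15, where 26.5% and 25% of all genes rose. In set A alone 1 member rose and 1 fell in WT-labelled cells (38.4% of all genes called, 21.2% higher and 17.2% lower) and 0 were called in KO-labelled cells (32.9% of all genes, 18.5% higher and 14.5% lower), with medians of 0.03 and -0.02. Tested directly, the response in set B minus that in set A differed for 1 member, Rpl10a, in WT-labelled cells at 2 h (0.35; edgeR adjusted p = 0.0395), where 6.42% of all genes were called, 1.62% higher and 4.8% lower. It differed for 0 members in KO-labelled cells (4.11% of all genes called, 0.741% higher and 3.36% lower). At an unadjusted p below 0.05 there were 6 members and 2825 genes in WT-labelled and 14 members and 1990 genes in KO-labelled cells. The median of this difference was 0.13 in WT-labelled and 0.17 in KO-labelled cells, beside 0.00 and -0.01 for all genes. Rpsa shows the spread, with 736, 989 and 1085 CPM in WT-labelled cells at 2 h. At 8 h, set A alone called 9 members higher and 9 lower in WT-labelled cells (32.9% and 34.6% of all genes) and 5 higher and 11 lower in KO-labelled cells (33.3% and 34.3%). Set B alone called 13 higher and 25 lower (37.4% and 38.7%) and 16 higher and 31 lower (37.5% and 39.7%).

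Between 2 h and 8 h of LPS, 3 members rose and 32 fell in WT-labelled cells (62.8% of all genes were called, 30% higher and 32.8% lower), and 4 rose and 29 fell in KO-labelled cells (65.2% called, 31.5% higher and 33.7% lower). The median was -0.09 in both, beside -0.04 for all genes. Rps24 (0.46 ± 0.08 and 0.62 ± 0.08) and Rps20 (0.27 ± 0.08 and 0.42 ± 0.08) rose under both labels, and Rps9 rose in KO-labelled cells (0.20 ± 0.06). With library totals alone 0 rose in either label, and 78 fell in WT-labelled cells (73.6% of all genes called, 16.4% higher and 57.2% lower) and 79 in KO-labelled cells (76.6% called, 16.7% higher and 59.9% lower). Rpl3 (-0.50 ± 0.07 and -0.51 ± 0.07) and Rpsa (-0.48 ± 0.09 and -0.43 ± 0.09) fell in this interval, having changed at 2 h by -0.02 ± 0.07 and 0.06 ± 0.09 in WT-labelled cells. Without the 4 libraries with muscle RNA, 20 fell and 3 rose in WT-labelled cells (29% and 26.4% of all genes). In set A 6 and 4 members fell in WT-labelled and KO-labelled cells (29.5% and 29.9% of all genes), and in set B 52 and 46 of 84 (36% and 37.1%).

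Between genotype labels edgeR called 0 of 85 members in controls, at 2 h and at 8 h, and DESeq2 called 0 in each. Of all genes, edgeR called 0.147% in controls (0.139% higher and 0.00772% lower in KO-labelled cells), 0.0232% at 2 h (0.0154% and 0.00772%) and 0.1% at 8 h (0.054% and 0.0463%). At an unadjusted p below 0.05 there were 2, 0 and 1 members. Among the 79 members with a mean of 4 CPM or more, the log2 difference between labels (KO-labelled minus WT-labelled) lay between -0.19 (Rpl23a, SE 0.09) and 0.11 (Rpl10, SE 0.07) in controls, between -0.12 and 0.05 at 2 h, and between -0.28 (Rpl13a, SE 0.14) and 0.12 (Rps24, SE 0.08) at 8 h. The median SE was 0.08, which leaves differences of that order undetectable here. Rpl6 and Rpl5 lie within 10 Mb of Nos1 on chromosome 5, at 3.42 and -9.88 Mb, and differed by 0.08 ± 0.08 and 0.03 ± 0.07 in controls.

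The interaction at 8 h called 0 members and 0 of all genes, with 1 member and 544 genes at an unadjusted p below 0.05. In set B alone, where 31.5% of all genes were called between labels at 8 h, 6 of 84 members were called there: Rps24 was higher in KO-labelled cells (0.27), and Rpl10a (-0.18), Rpl7a (-0.14), Rpl7l1 (-0.24), Rps19bp1 (-0.29) and Rps3a1 (-0.13) were lower. In controls of set B Rpl7l1 was higher (0.22) and Rpl22l1 lower (-0.36), where 10.5% of all genes were called. The interaction at 8 h within set B called Rpl7l1 (-0.46) and Rps19bp1 (-0.44), where 16.6% of all genes were called. In set A 0 members were called between labels at any time. The share of all genes called there was 0.0548% in controls, 0.0704% at 2 h and 0.0469% at 8 h. With so few calls among all genes, this result does not set the members apart from other genes.

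The paralogues were expressed at different levels beside their partners. Rpl22l1 stood at 17 ± 2.93 CPM in WT-labelled controls (SD, n = 6), with Rpl22 at 149 ± 16.4 CPM. At 8 h Rpl22 fell by 0.27 ± 0.07 in WT-labelled and by 0.28 ± 0.07 in KO-labelled cells, and Rpl22l1 changed by 0.17 ± 0.15 and 0.26 ± 0.15 without passing the test. Rps27l, a p53-responsive paralogue of Rps27, stood at 87.3 ± 7.11 CPM and changed by -0.12 ± 0.16 and -0.08 ± 0.16. Rpl7l1 stood at 76.4 ± 6.27 CPM in WT-labelled controls and changed by 0.16 ± 0.10 and -0.14 ± 0.10. Rpl39l, known from testis, had sums of 29 to 44 counts per group and levels of 0 to 1.82 CPM. Rpl36al fell in KO-labelled cells (-0.88 ± 0.40; edgeR adjusted p = 0.0484) on a sum of 18 counts in the group at 8 h against 51 in controls. Rps27rt changed by -0.28 ± 0.27 and 0.12 ± 0.28. Of the remaining partners, Rpl36a fell by 0.19 ± 0.08 in WT-labelled cells (edgeR adjusted p = 0.0252), and Rpl39, Rps27, Rpl7 and Rps4x passed the test at 8 h under neither label.

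The 6 members that were not tested were Rpl10l, a paralogue known from testis, and Rpl36-ps4, each with 0 counts in all 36 libraries, Rpl9-ps1 (46 counts), Rpl36a-ps1 (71), Rps12-ps3 (184) and Rpl3l (186). Rpl3l, the paralogue of Rpl3 known from striated muscle, had 118 of its 186 counts in WT-labelled LPS 8 h replicate 5, the library with 3770 CPM of summed muscle markers. The next library, with 17 counts, was WT-labelled LPS 2 h replicate 6, whose muscle markers summed to 482 CPM.

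Rps19bp1, outside the ribosome, stood at 19.1 ± 1.92 CPM in WT-labelled controls and 15.7 ± 1.24 CPM at 8 h (-0.29 ± 0.11; edgeR adjusted p = 0.0169), and at 19.5 ± 1.97 and 13.7 ± 1.59 CPM in KO-labelled cells (-0.50 ± 0.11; edgeR adjusted p = 9.13e-05; SD, n = 6 each). The retrocopy-named genes Rpl9-ps6 and Rpl10-ps3 stood at 3.62 ± 1.29 and 3.76 ± 1.25 CPM in WT-labelled controls, and neither passed the test in any contrast.

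Members with longer coding sequences tended to lower fold changes at 8 h. Across the 79 members the Pearson correlation of coding length with the log2 fold change was -0.34 in WT-labelled and -0.42 in KO-labelled cells, and -0.01 and -0.33 at 2 h. These are descriptions across genes that share libraries. The 7 genes higher in both labels had a median coding length of 582 bases (353 to 612), the 19 lower ones 633 bases (291 to 1257) and all 79 members 453 bases, so the longest coding sequences were all outside the group that rose. The correlation with the GC content of the mRNA was -0.20 and -0.21 at 8 h.

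Promoter windows from RefSeq (GRCm38.p6, 250 bases before to 50 after the annotated start) were matched to 65 of the 91 members. Where a gene had several windows, the one furthest upstream was used. A run of 8 or more C or T bases within 5 bases of the start was present in 21 of 65 windows (32.3%), against 9.3% of the 27025 windows of all genes. These are the letters of a TOP tract, but the run did not have to begin at the start. The share is therefore not a count of TOP tracts. The motif CCGGAAG, the kind of site that ETS factors bind, was found on either strand in 38.5% of the members' windows and 9.14% of all windows, and CTCTTTC in 26.2% and 8.06%. The hits of both motifs overlapped in 5 windows. Among genes higher in both labels at 8 h, 3 of 5 with a window held the run, as did 4 of 15 lower ones, too few to compare. The stretches around the start, 15 bases on each side, are shown for members that rose and members that fell. Capitals mark the longest run of C and T that reaches within 5 bases of the start. This run covers the annotated start base in Rps24 and Rps9, and lies before or after it in the other genes shown.
Rps24, higher, chr14:24490663-24490692, plus strand: cccgcgctggggTCCTTCCTTgcgcgttga
Rps9, higher, chr7:3704026-3704055, plus strand: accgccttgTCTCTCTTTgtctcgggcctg
Rpl19, higher, chr11:98026695-98026724, plus strand: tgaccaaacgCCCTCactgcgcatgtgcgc
Rpl13a, lower, chr7:45128731-45128760, minus strand: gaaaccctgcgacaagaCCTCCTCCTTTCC
Rpl10a, lower, chr17:28328456-28328485, plus strand: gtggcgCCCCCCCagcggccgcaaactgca
Rpsa, lower, chr9:120127751-120127780, plus strand: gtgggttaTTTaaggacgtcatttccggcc
The runs measured 9 bases in Rps24 and Rps9, 14 in Rpl13a (1 past the printed end), 7 in Rpl10a, 5 in Rpl19 and 3 in Rpsa, so their length did not follow the direction of change in these 6 genes.

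Other genes of the same pathway are given for comparison. Of all tested genes, 34.2% were called higher and 37% lower at 8 h in WT-labelled cells. In KO-labelled cells the shares were 34.9% and 37.2%, and the counts for each list below stand beside these. The cytosolic ribosomal proteins under other symbols, among them Rack1 and Fau, are outside the rule. These changed at 8 h by -0.08 ± 0.06 and 0.08 ± 0.06 in WT-labelled cells without passing the test, and Rack1 fell by 0.17 ± 0.06 in KO-labelled cells. Of 24 translation factors and other genes whose mRNAs are known for a TOP tract, 2 rose and 9 fell in WT-labelled cells at 8 h and 3 rose and 12 fell in KO-labelled cells, with medians of -0.08 and -0.14. Gas5, a growth arrest RNA that hosts small nucleolar RNAs, fell (-1.18 ± 0.11 and -1.16 ± 0.11). Eif4b, which assists the helicase of translation initiation, fell (-0.94 ± 0.08 and -1.12 ± 0.08). Pabpc1, the cytoplasmic poly(A)-binding protein, rose by 0.62 ± 0.07 and 0.77 ± 0.07, and stood at -0.16 and -0.06 with library totals alone.

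Ribosome assembly and nucleolar factors fell in most cases at 8 h. Of 56 tested, 42 fell and 3 rose in WT-labelled cells (median -0.66), and 46 fell and 3 rose in KO-labelled cells (median -0.85), beside the members' medians of -0.02 and -0.05. Wdr12, of the complex that processes the large-subunit rRNA, fell (-2.06 ± 0.13 and -2.27 ± 0.13), and Rrp1b, a nucleolar protein, fell (-2.78 ± 0.30 and -2.83 ± 0.30). Rrs1, which brings 5S rRNA into the large subunit, rose by 1.94 ± 0.21 and 2.05 ± 0.21 at 2 h and by 1.05 ± 0.20 and 0.86 ± 0.20 at 8 h, where it stood at 0.29 and 0.04 with library totals alone. Rpl7l1 is on this list too.

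Mitochondrial ribosomal proteins, the counterpart in the other ribosome of the cell, had 11 of 77 higher and 36 lower at 8 h in WT-labelled cells and 12 higher and 34 lower in KO-labelled cells, with a median of -0.20 in both. Mrpl52 rose by 2.00 ± 0.13 in both, whereas Mrps26 fell (-1.39 ± 0.12 and -1.38 ± 0.12), a range wider than that of the cytosolic members. Among 33 tested genes of mTOR, LARP and MYC control, 9 rose and 16 fell at 8 h in WT-labelled cells (71.2% of all genes called). In KO-labelled cells 10 rose and 18 fell (72.1% of all genes called). Larp1, the repressor and stabiliser of TOP mRNAs, rose by 1.25 ± 0.13 and 1.24 ± 0.13 at 2 h and by 2.16 ± 0.14 and 2.36 ± 0.14 at 8 h, and by 1.38 and 1.54 at 8 h with library totals alone. Mxd1, an antagonist of MYC, rose by 4.22 ± 0.19 and 4.71 ± 0.19 at 8 h, and Sesn1, an inhibitor of mTORC1, fell (-3.04 ± 0.30 and -3.86 ± 0.31). Between genotype labels in controls, 0 genes of these lists were called, and the lists were chosen with earlier results of these data known.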

How the data were processed

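RNA-seq counts of 36 libraries were used. The deposited values are unnormalised counts made with HTSeq on mm10, per the submitters' processing notes. The sources used here name no aligner, annotation, HTSeq version or mode, and no strand setting. Symbols, positions and lengths were taken from GENCODE release M21, which held 54165 of the 54232 identifiers. Replicate numbers follow accession order, so they were not used to pair libraries.

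The counts went into edgeR 4.0.16 (R 4.3.3): filterByExpr (12957 genes kept), TMM scaling, 1 quasi-likelihood fit over all 36 libraries with a mean for each group, F tests and Benjamini-Hochberg adjustment over all genes, called below 0.05. Standard errors came from the F statistic. The method was tested on simulated data in which equal numbers of a small part of the genes were raised and lowered. These data held no library sets and no shift of the bulk of genes, so they do not bear on the choice of scaling. Alternatives were library totals alone, TMM without the members, DESeq2 1.42.0 (size factors, and its own test), no low-count filter, a term for the library set, either set by itself, members summed with matching pseudogenes (at least 90% identity over 100 bases), and leaving out 4 libraries with muscle RNA. The set difference, the mRNA length and leaving out WT-labelled LPS 8 h replicate 5 were added after seeing the data. Counting limits precision for members with few counts.

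The members, lists and rule for named genes were chosen with earlier results of these data known. Named were, per contrast, the 4 largest called changes each way among members with a mean of 4 CPM or more, all called members where 5 or fewer, the 4 highest and 4 lowest per kilobase, paralogues and partners, stalk proteins, members within 10 Mb of Nos1, and 7 with known roles. From each related list up to 3 of the largest calls each way could be named. Other members, such as those called in both labels at 8 h, were named after their values were seen. A few members are not reported here by name but remain in the counts, sums and medians.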

Additional observations from a re-analysis of the deposited data

Results flagged for a closer look

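The members' share, their summed level and 8 members were examined in each of the 6 groups, 60 sets of 6 libraries in all. In 5 of these sets 1 library lay apart from the other 5 by Dixon's gap criterion, and chance gives about 5%. In WT-labelled controls, replicate 1 had 3.87% of its counts in ribosomal protein genes, against 3.14 to 3.39% in the other 5, and Rps20 at 303 CPM against 204 to 224 CPM. The same library held 4924 counts of Xist, where the other 5 held 0 or 1; its part in these values was not tested. Rpl3l stood at 12.6 CPM in WT-labelled LPS 8 h replicate 5 against 0 to 0.132 CPM, in the library with 3770 CPM of summed skeletal muscle markers. Rpl3l was also apart in KO-labelled control replicate 4, at 0.424 CPM (7 counts) against 0 to 0.159 CPM, with 40 CPM of muscle markers. Rps9 in KO-labelled LPS 2 h replicate 1 was at 501 CPM against 536 to 552 CPM in the other 5.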

How the results depend on the processing

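The scaling changed most. With library totals alone, members called numbered 57, 82 and 78 in WT-labelled cells (2 h and 8 h against control, 8 h against 2 h) and 67, 83 and 79 in KO-labelled cells, all lower, and the medians were -0.21, -0.79, -0.56, -0.24, -0.87 and -0.61. All 7 calls at 2 h in WT-labelled cells reversed there: Rpl19 (-0.10), Rpl26 (-0.12), Rps12 (-0.10), Rps9 (-0.08), Rps10 (-0.12), Rpl7a (-0.13) and Rpl34 (-0.14). At 8 h all 7 genes higher in both labels reversed, among them, in WT-labelled and KO-labelled cells, Rpl15 (-0.61 and -0.65), Rpl34 (-0.58 and -0.67), Rpl19 (-0.50 and -0.58), Rps20 (-0.32 and -0.26), Rps24 (-0.20 and -0.15) and Rps9 (-0.49 and -0.56). By construction this scaling gives shares of all counts.

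Each set held 3 libraries per group, and the members' median SE for the LPS comparisons was 0.11 in set A and 0.06 in set B. In set A members called numbered 2, 18 and 9 in WT-labelled cells and 16 and 7 in KO-labelled cells at 8 h against control and against 2 h. In set B they were 50 (2 h) and 55 (8 h against 2 h) in WT-labelled cells, 42 and 50 in KO-labelled cells, and 2 and 6 between labels in controls and at 8 h, with 2 for the interaction at 8 h. With the set as a term 13 members (15.3%) were called at 2 h in WT-labelled and 1 (1.18%) in KO-labelled cells. Without this term 37.9% and 35.3% of all genes were called in these comparisons. Over all genes this term also raised the number at an unadjusted edgeR p below 0.05. It went from 5838 to 6813 genes in WT-labelled and from 5476 to 6376 in KO-labelled cells. The sets were drawn from the spread of these same counts within groups, so such a rise follows by construction. Without a low-count filter 3 members (3.37%) were called at 2 h in WT-labelled cells. DESeq2's test called 1 (1.18%) at 2 h in KO-labelled cells. Without the 4 libraries with muscle RNA 23 (27.1%) were called between 8 h and 2 h in WT-labelled cells. With the settings used for the results above, 37.9%, 35.3% and 62.8% of all genes were called in these comparisons. The causes were not tested. By direction, at 8 h against control, members higher went from 8 to 13 in WT-labelled and from 8 to 16 in KO-labelled cells in set B and from 8 to 13 in WT-labelled cells with DESeq2's test, and members lower went from 21 to 12 in WT-labelled cells without the 4 libraries. In set B the members' median went from -0.09 to -0.18 in WT-labelled cells between 2 h and 8 h. It went from 0.06 to 0.15 in KO-labelled cells at 2 h. The other total counts of calls, both directions together, stayed within 1.5 times. The other medians moved by about the spread or less, a mean SD over libraries of 0.0826 for the members' median log2 level. No paired analysis was possible because the labels give no replicate number, animal or culture, and the numbers used here follow accession order, although set membership ran along these numbers in every group and high Xist was in WT-labelled replicate 1 of each treatment.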
